A study of Mus musculus with 16 samples.

Results

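Rbm3 and Cirbp encode the cold-inducible RNA-binding proteins of the mouse, and their mRNA levels were followed in the hippocampus across 4 groups of mice. These 2 genes, of the 54532 in the deposited table, were taken by their symbols. Rbm3 was picked for its rise in hTau.P301S mice and its fall with NR, so those differences describe how it was picked, and Cirbp was taken as the other cold-shock protein of this kind. The experiment measured bulk hippocampal RNA by RNA sequencing in 16 mice, 4 per group.

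The WT mice were given vehicle water, and the WT + NR mice were given 6 mM nicotinamide riboside (NR), a precursor of NAD+, in the drinking water. The hTau.P301S mice carry a transgene for human Tau with the P301S mutation, driven by the Thy1 promoter, which is active mainly in neurons. They were given vehicle water, and the hTau.P301S + NR mice of the same strain were given 6 mM NR. The labels state 3 months of treatment, from 12 to 15 months of age, for all groups, and the study's own text gives other ages and, in one of its accounts, another length of treatment. Sex is not given in the sources used here. In bulk tissue, fewer cells of a type and less RNA per cell cannot be told apart.

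RBM3 and CIRBP are small proteins with 1 RNA recognition motif at the amino end and a glycine-rich tail, and both bind mRNA and affect its stability and translation. Their transcripts rise when cells or animals are mildly cooled, and they fall on warming. RBM3 is known for its part in keeping and rebuilding synapses after cooling in mouse models of neurodegeneration. CIRBP is known for tuning clock gene transcripts to body temperature and, when released from cells, as a danger signal to immune receptors. Body temperature was not among the measurements used here.

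Rbm3 (ENSMUSG00000031167) lies on the minus strand of chromosome X from 8138975 to 8145880 in GRCm38, the assembly that mm10 denotes, and Cirbp (ENSMUSG00000045193) on the plus strand of chromosome 10 from 80165985 to 80172786. GENCODE lists 11 transcripts of Rbm3, of which 6 are protein coding, 2 are marked for nonsense-mediated decay and 2 retain an intron. It lists 7 transcripts of Cirbp, with 2 protein coding, 1 marked for decay and 4 with a retained intron. The main Rbm3 transcripts encode 154 codons, or 153 in the other coding ones, and the main Cirbp transcript encodes 172. The counts pool all transcripts of a gene, so coding and intron-retaining forms are not separated here.

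The first 258 coding bases, counted from the start codon and covering the RNA recognition motif, are shown to compare the 2 transcripts, because reads from near-identical stretches could be shared between genes. Capitals mark the bases that differ, and 184 of the 258 bases (71.3%) were identical over 86 codons.
Rbm3, main transcript: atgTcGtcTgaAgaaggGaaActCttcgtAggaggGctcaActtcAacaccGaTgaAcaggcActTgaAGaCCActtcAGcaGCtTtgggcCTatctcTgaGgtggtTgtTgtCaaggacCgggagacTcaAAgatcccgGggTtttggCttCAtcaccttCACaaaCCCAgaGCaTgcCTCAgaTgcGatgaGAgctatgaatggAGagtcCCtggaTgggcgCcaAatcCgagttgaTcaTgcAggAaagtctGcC
Cirbp, main transcript: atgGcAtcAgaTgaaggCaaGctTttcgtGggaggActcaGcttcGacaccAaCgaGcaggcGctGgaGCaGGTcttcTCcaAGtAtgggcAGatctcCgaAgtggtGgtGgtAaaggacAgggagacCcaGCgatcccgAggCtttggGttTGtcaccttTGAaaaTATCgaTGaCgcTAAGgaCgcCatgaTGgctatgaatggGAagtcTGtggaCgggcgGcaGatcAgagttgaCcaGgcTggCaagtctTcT
The longest run of bases that the main transcripts shared was 11 bases, so the similarity between them is spread over short stretches. The capitals fall mostly at single, scattered bases in the first part and in longer groups toward the middle. Rbm3 has a closer copy elsewhere in the genome, the processed pseudogene Rbm3-ps (ENSMUSG00000099875). Of 465 aligned bases of Rbm3-ps, 462 (99.4%) matched Rbm3, with a shared run of 197 bases. Counts given to Rbm3-ps were between 0.302% and 2.57% of the Rbm3 counts in the 16 mice, so the split between gene and copy leaves a small uncertainty in the Rbm3 level.

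The start of Cirbp is shown because the promoters of cold-inducible genes can carry the mild cold response element TCCCCGCC. The sequence holds the 250 bases before a transcription start of Cirbp in RefSeq (GRCm38.p6, chr10:80167589-80167838, plus strand), and the capitals mark the element.
Cirbp promoter: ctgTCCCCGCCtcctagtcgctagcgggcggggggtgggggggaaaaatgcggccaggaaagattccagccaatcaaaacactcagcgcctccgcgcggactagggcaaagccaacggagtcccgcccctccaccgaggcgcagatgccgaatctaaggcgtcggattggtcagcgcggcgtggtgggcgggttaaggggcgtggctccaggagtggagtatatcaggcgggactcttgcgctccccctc
The element stood once in this window, with its first base 247 bases before the start. The window also held 3 GC boxes (GGGCGG), 2 CCAAT boxes and 0 heat shock elements (GAANNTTC), searched on both strands. Of 32851 windows of the same length, 4.64% held TCCCCGCC, 32.7% a GC box, 33.8% a CCAAT box and 6.69% a heat shock element. The window at the other Cirbp start, at chr10:80167921-80168170, held 4 GC boxes and 0 of the other motifs. A match of letters is a description and does not show that a factor binds there.

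The libraries held 16490261 to 21915362 counts (median 18415133.5). hTau.P301S replicate 1 stood apart. Mitochondrial transcripts took 14.4% of its counts and it had 19467 genes with a count, against 4.48% to 7.07% and 22199 to 24918 genes in the other 15 mice. The slope of log2 CPM on log2 gene length, in which CPM stands for counts scaled by the TMM-normalized library total, was -0.505 in it and from -0.109 to 0.115 in the others. Differences that rest on this mouse are given with and without it. As a check of the labels, Thy1 was read, since sequence of this gene drives the transgene. It ranged from 804 to 1640 CPM in hTau.P301S mice and from 667 to 845 CPM in those on NR, above the 462 to 633 CPM of WT mice and the 424 to 580 CPM of WT mice on NR. Mapt, the mouse gene for Tau, was read too and did not separate the genotypes. It ranged from 188 to 477 CPM in hTau.P301S mice and from 425 to 484 CPM in those on NR. In WT mice Mapt was at 370 to 447 CPM, and in WT + NR mice at 413 to 493 CPM. All 5 markers of hippocampal neurons were detected in every group, with a summed level between 385 and 913 CPM. This sum hides differences between mice. Neurod6 was at 21.7 to 35.0 CPM in WT replicate 2, WT + NR replicate 3 and hTau.P301S + NR replicate 4. In the other mice it was at 116 to 237 CPM. WT replicate 2 had the lowest Zbtb20 of all mice, at 31.4 CPM, and the highest Wfs1, at 287 CPM.

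In WT mice, Rbm3 was at 53.2, 62.1, 63.0 and 69.1 CPM in replicates 1 to 4. In WT + NR mice, it was at 80.0, 69.6, 53.9 and 63.0 CPM. The ranges of these groups overlapped, and every WT value lay within the WT + NR range or just under it. In hTau.P301S mice, Rbm3 was at 252, 105, 119 and 119 CPM. In hTau.P301S + NR mice, it was at 63.3, 86.3, 78.2 and 47.4 CPM. All 4 untreated hTau.P301S mice lay above all 12 other mice, also when the highest one, replicate 1, is set aside. Rbm3 was picked for this rise and fall, and the share of all genes with this order was not counted. The NR-treated hTau.P301S mice spread over a wider range than WT mice, with 1 of them below and 2 of them above every WT mouse.

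From lowest to highest, the mean Rbm3 level was 61.8 ± 6.53 CPM for WT, 66.6 ± 11.0 CPM for WT + NR, 68.8 ± 17.1 CPM for hTau.P301S + NR and 149 ± 69.1 CPM for hTau.P301S mice (SD, n = 4 each). Without replicate 1, the hTau.P301S mean was 114 ± 7.88 CPM (SD, n = 3), so most of the spread in that group came from 1 mouse. The lowest 3 groups in this order did not differ from their neighbours by more than the SD. The counts behind these levels were between 971 and 2949 per mouse, so counting error is small beside the spread between mice.

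Cirbp was at 62.5, 89.0, 70.7 and 68.6 CPM in WT replicates 1 to 4. In WT + NR mice, it was at 81.6, 56.6, 74.8 and 68.1 CPM. These groups overlapped over most of their range. In hTau.P301S mice, Cirbp was at 217, 99.3, 110 and 86.1 CPM. In hTau.P301S + NR mice, it was at 49.6, 70.4, 50.1 and 52.4 CPM. Replicate 1 was again the highest hTau.P301S mouse, and the lowest one, replicate 4, lay below WT replicate 2, so hTau.P301S and WT mice overlapped for Cirbp. All hTau.P301S + NR mice lay below all hTau.P301S mice, and 3 of them lay below every WT mouse.

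In order of its mean, Cirbp was at 55.6 ± 9.92 CPM for hTau.P301S + NR, 70.3 ± 10.7 CPM for WT + NR, 72.7 ± 11.4 CPM for WT and 128 ± 59.8 CPM for hTau.P301S mice (SD, n = 4 each). The hTau.P301S mean was 98.6 ± 12.1 CPM (SD, n = 3) without replicate 1. The WT and WT + NR means differed by less than their SD. The order of the groups was therefore not that of Rbm3: hTau.P301S + NR mice had the lowest mean of Cirbp and the second highest of Rbm3.

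**Figure D1:**
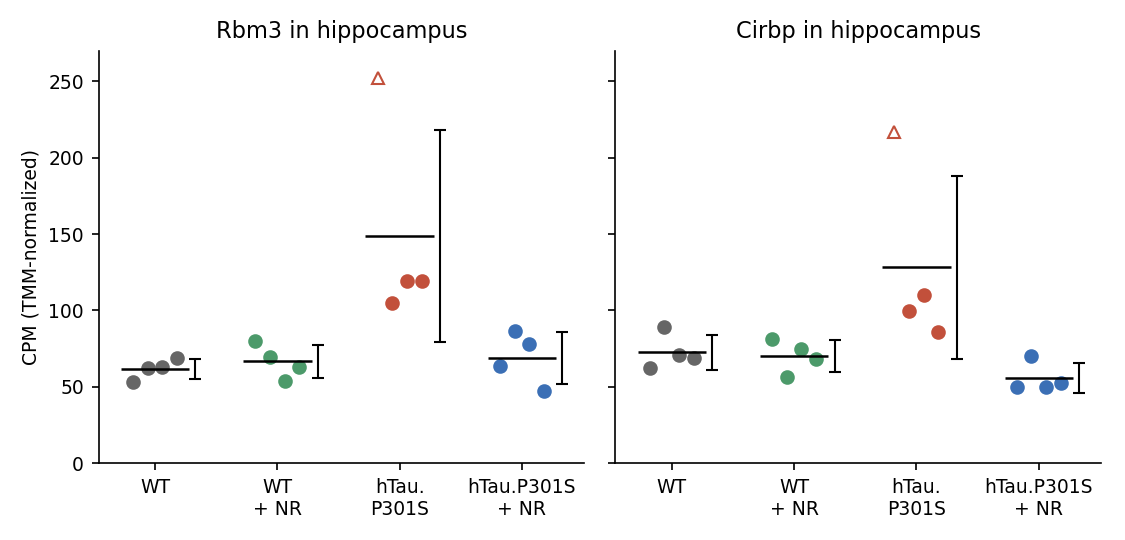
Level of Rbm3 (left) and Cirbp (right) in CPM on a linear axis from 0, with a point for each mouse, the mean as a horizontal line and the SD as a bar beside it (n = 4 per group). The open triangle is hTau.P301S replicate 1, at 252 CPM for Rbm3 and 217 CPM for Cirbp, and the other hTau.P301S mice sit between 86.1 and 119 CPM.

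Rbm3 differed most between hTau.P301S and WT mice. Its mean was 2.41 times the WT mean, and 1.85 times without hTau.P301S replicate 1. The log2 fold change from edgeR was 1.27 with a standard error of 0.31, and 0.88 with a standard error of 0.13 without that mouse. Leaving out 1 mouse thus lowered the estimate and narrowed its error. All 4 hTau.P301S mice exceeded all 4 WT mice, which was so for 3.55% of the 16375 genes tested, and for 7.96% without replicate 1, where Rbm3 also did. No p is given for either gene in this comparison, because Rbm3 was picked from it. Of all genes, 0.00611% (1 gene) were differentially expressed genes (DEGs), for which the adjusted p had to be under 0.05 and the log2 fold change larger than 0.5 in size, and neither Rbm3 nor Cirbp was that gene. DESeq2, the tool the study used, called 0.603% of genes on the same 8 mice and 2.48% with all 4 groups in one fit, with Rbm3 among them and Cirbp not among them in both fits. Which of the members is called therefore depends on the model, and nothing is read from the calls, as Rbm3 was picked from this comparison.

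Cirbp stood higher too, at 1.76 times the WT mean and 1.36 times without replicate 1. Its log2 fold change was 0.82 with a standard error of 0.31, and 0.43 with a standard error of 0.16 without that mouse. For Cirbp these groups overlapped, through WT replicate 2 at 89.0 CPM, and for Rbm3 they did not. Rbm3 was picked for its rise in this comparison, so the genes cannot be ranked by how far apart the groups stood. Among all genes tested, ordered from the highest log2 fold change, Rbm3 was number 602 and Cirbp number 1502 of 16375. Without replicate 1 they were number 247 and number 1144 of 16835. Both therefore stood closer to the top of this order when the mouse with the high mitochondrial share was left out. Their fold changes were smaller without it. The share of genes with a change at least as large, of either sign, rose from 6.39% to 8.83% for Rbm3. For Cirbp this share also rose, to 25.8%. By the size of the change alone, both genes thus stood out less without that mouse.

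With NR, the hTau.P301S mice had lower levels of both transcripts. This comparison shares the untreated hTau.P301S mice with the one above, so a high value in that group enters both with opposite signs. The mean of Rbm3 was 0.462 times that of untreated hTau.P301S mice, and 0.601 times without replicate 1. The log2 fold change of Rbm3 was -1.13 with a standard error of 0.33, and -0.73 with a standard error of 0.18 without it. For Cirbp, the mean was 0.434 times, or 0.564 times without replicate 1. The log2 fold change of Cirbp was -1.22 with a standard error of 0.31, and -0.82 with a standard error of 0.15 without it. For both genes, all NR-treated mice lay below all untreated ones, with and without replicate 1. Of 16386 genes tested, 5.54% lay so, and 8.86% without replicate 1. The share of DEGs was 0.0061% by edgeR, and neither gene was among them. DESeq2 called 1.26% of genes on the same 8 mice, with Cirbp among them and Rbm3 not, and 1.53% with all 4 groups in one fit, with both among them. From the lowest log2 fold change, Cirbp was number 964 and Rbm3 number 1135, and without replicate 1 they were number 281 and number 385 of 16734.

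**Figure D2:**
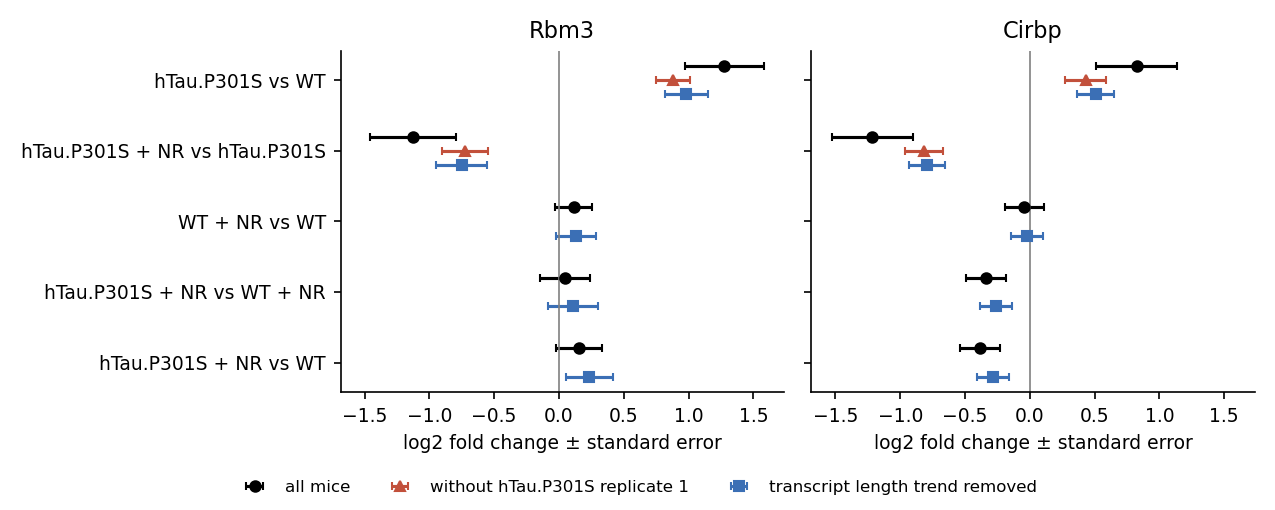
Log2 fold change with its standard error (edgeR) of Rbm3 (left) and Cirbp (right) in each comparison, with all mice (circles), without hTau.P301S replicate 1 (triangles, in the comparisons that hold this mouse) and after a trend with transcript length was removed (squares). Rbm3 in hTau.P301S against WT mice stood at 1.27, 0.88 and 0.98 in these 3 settings, and the comparisons without untreated hTau.P301S mice stood nearer to 0.

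In WT mice, NR was compared with vehicle water, a comparison that Rbm3 was not picked from, although the WT mice entered the one that it was. The ratio of means was 1.08 for Rbm3 and 0.967 for Cirbp. The log2 fold change was 0.11 with a standard error of 0.14 for Rbm3 (edgeR adjusted p = 1). It was -0.04 with a standard error of 0.15 for Cirbp (edgeR adjusted p = 1). The sign of the Rbm3 value turned without WT + NR replicate 1 (-0.01), and that of Cirbp without WT replicate 2 (0.07) or WT + NR replicate 2 (0.05). Both groups overlapped for both genes, and neither gene was called, beside 0.365% of genes with all WT + NR mice above all WT mice and 0.389% with all below. The share of DEGs in this comparison was 0.0% of 16714 genes by edgeR, with 132 genes at an unadjusted p under 0.05 and 3 genes (0.00948%) called by DESeq2, neither Rbm3 nor Cirbp among them.

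The effect of the transgene was also compared in mice on NR, that is hTau.P301S + NR against WT + NR mice. The treated hTau.P301S mice entered the choice of Rbm3, and the WT + NR mice did not. Rbm3 had a ratio of means of 1.03 and a log2 fold change of 0.05 with a standard error of 0.19 (edgeR adjusted p = 0.965). Cirbp had a ratio of means of 0.791 and a log2 fold change of -0.34 with a standard error of 0.15 (edgeR adjusted p = 0.781). The groups overlapped for both genes, whereas 1.62% of genes had all hTau.P301S + NR mice above all WT + NR mice and 2.11% had all below. Neither was among the 0.054% of 16671 genes called as DEGs by edgeR, or the 0.285% called by DESeq2. Rbm3 turned to a negative value without WT + NR replicate 3 (-0.04), hTau.P301S + NR replicate 2 (-0.08) or hTau.P301S + NR replicate 3 (-0.02), that is in 3 of the 8 fits that left out 1 mouse.

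Treated hTau.P301S mice were set beside untreated WT mice as well, as values without a test, since both groups entered the choice of Rbm3. The log2 fold change was 0.16 with a standard error of 0.18 for Rbm3 and -0.38 with a standard error of 0.15 for Cirbp, and the share of DEGs was 0.102% by edgeR and 0.554% by DESeq2, with neither gene among them. Here 2.76% of genes had all treated hTau.P301S mice above all WT mice and 2.81% all below. The mean of Cirbp in treated hTau.P301S mice thus stood below those of both WT groups, and its ranges overlapped with theirs. The difference between the NR effects in the 2 genotypes was -1.22 on the log2 scale with a standard error of 0.37 for Rbm3, and -1.15 with a standard error of 0.35 for Cirbp. Without hTau.P301S replicate 1, it was -0.83 with a standard error of 0.24 and -0.77 with a standard error of 0.22.

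Per length of transcript, in FPKM (fragments per kilobase of exon, scaled by the same total) with the deposited gene lengths of 4698 bases for Rbm3 and 2604 bases for Cirbp, Cirbp was above Rbm3 in all 16 mice. In WT mice, Rbm3 was at 13.2 ± 1.39 FPKM and Cirbp at 27.9 ± 4.38 FPKM (SD, n = 4). In WT + NR mice, the levels were 14.2 ± 2.34 and 27.0 ± 4.09 FPKM. In hTau.P301S mice they were 31.7 ± 14.7 and 49.2 ± 23.0 FPKM, or 24.4 ± 1.68 and 37.9 ± 4.65 FPKM without replicate 1 (SD, n = 3). In hTau.P301S + NR mice they were 14.6 ± 3.65 and 21.4 ± 3.81 FPKM. The deposited lengths count every exon of every transcript once, and they exceed the length of all annotated coding transcripts of both genes, which run from 969 to 2792 bases for Rbm3 and from 423 to 1321 bases for Cirbp. FPKM is therefore a low estimate for both, and the order of the genes depends on the length used. Per median coding transcript length, Cirbp was above Rbm3 in 15 of 16 mice. In counts, without regard to length, it was so in 7 of 16.

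The ratio of Rbm3 to Cirbp within a mouse does not depend on the scaling of the library. In FPKM, it was 0.472, 0.387, 0.494 and 0.558 in WT replicates 1 to 4. It was 0.543, 0.681, 0.400 and 0.512 in WT + NR mice. It was 0.645, 0.588, 0.600 and 0.763 in hTau.P301S mice. All 4 untreated hTau.P301S mice, replicate 1 among them in the middle of the group, had a higher ratio than all WT mice. Rbm3 was picked for its rise in this comparison, so a higher ratio follows in part from the choice and is only a description. How often the ratio of other pairs of genes separates these groups was not counted. In hTau.P301S + NR mice the ratio was 0.707, 0.679, 0.866 and 0.502. Both treated groups spread more widely than the untreated ones.

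The mean ratio was 0.478 ± 0.0708 for WT, 0.534 ± 0.116 for WT + NR, 0.649 ± 0.0798 for hTau.P301S and 0.688 ± 0.149 for hTau.P301S + NR mice (SD, n = 4 each). The log2 ratio in WT + NR differed from that in WT mice by 0.15 (two-sided exact permutation p = 0.429, adjusted p = 0.429 over 2 tests). In hTau.P301S + NR mice, it exceeded that in WT + NR mice by 0.37 (two-sided exact permutation p = 0.229, adjusted p = 0.429 over 2 tests). The WT and the hTau.P301S + NR mice entered the choice of Rbm3, and the WT + NR mice did not, so neither test is free of that choice. The smallest p such a test can give with 4 against 4 mice is 0.0286. The high mouse, hTau.P301S replicate 1, had raised levels of both genes and a ratio of 0.645, near the mean of its group.

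**Figure D3:**
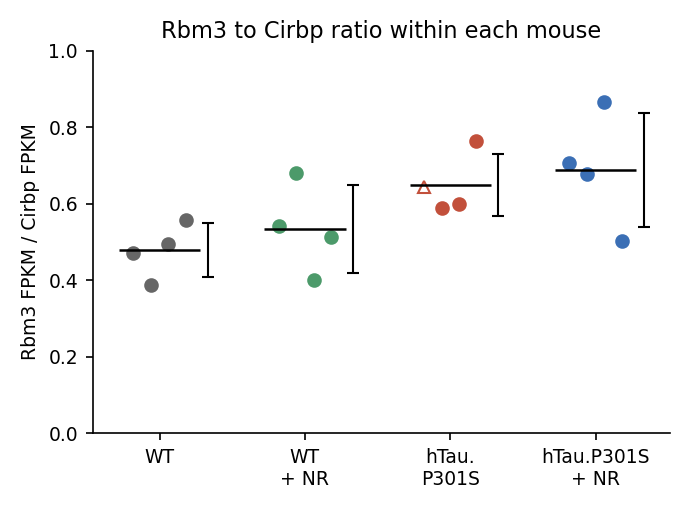
Ratio of Rbm3 to Cirbp in FPKM within each mouse, on a linear axis from 0, with the mean as a line and the SD as a bar (n = 4 per group). The open triangle is hTau.P301S replicate 1, at 0.645. The hTau.P301S mice, from 0.588 to 0.763, sit above the WT mice, from 0.387 to 0.558, in the comparison that Rbm3 was picked from.

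hTau.P301S replicate 1 gave more counts to short genes than the other mice, so Rbm3 and Cirbp were set beside genes of like length. Among 2061 genes whose median coding transcript was within 1.25-fold of that of Rbm3, the median log2 fold change in hTau.P301S against WT mice was 0.29, against 1.27 for Rbm3. Among 1798 genes like Cirbp in this length it was 0.32, against 0.82 for Cirbp. Without replicate 1, these medians were -0.03 and -0.08, and Rbm3 and Cirbp stood at 0.88 and 0.43. These values describe where the genes stood, since Rbm3 was picked for its rise in this comparison.

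For NR in hTau.P301S mice, the median of like genes was -0.42 for Rbm3 and -0.48 for Cirbp with all mice, and -0.07 and -0.06 without replicate 1. With the deposited gene length in place of the transcript length, the medians of like genes were -0.01 for Rbm3 and 0.18 for Cirbp in hTau.P301S against WT mice. When a trend with transcript length was removed from every mouse, an alternative chosen after seeing the data, the log2 fold change in hTau.P301S against WT mice was 0.98 for Rbm3 with a standard error of 0.16. It was 0.51 with a standard error of 0.15 for Cirbp. In NR-treated against untreated hTau.P301S mice, it was -0.75 with a standard error of 0.20 for Rbm3 and -0.80 with a standard error of 0.14 for Cirbp. These values lay nearer to those without replicate 1 than the uncorrected ones did. Removing a trend with the deposited gene length instead moved Rbm3 the other way. It then stood at 1.36 with a standard error of 0.34 against WT and at -1.22 with a standard error of 0.36 with NR in hTau.P301S mice. The difference of NR effects between genotypes was then -1.33 for Rbm3. Cirbp then stood at 0.60 with a standard error of 0.19 and at -0.93 with a standard error of 0.19. The direction in which a length correction moved Rbm3 thus depended on which length was used.

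**Figure D4:**
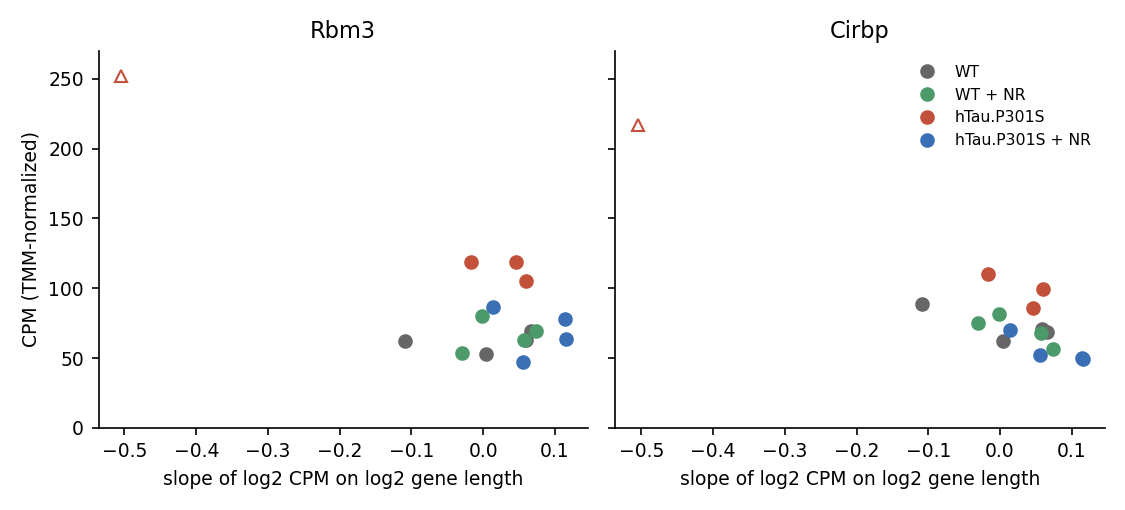
CPM of Rbm3 (left) and Cirbp (right) in each mouse against the slope of log2 CPM on log2 gene length over all genes of that mouse. hTau.P301S replicate 1, the open triangle at -0.505, stands apart from the other 15 mice, from -0.109 to 0.115. Among these, the untreated hTau.P301S mice still hold the highest Rbm3 levels, the rise that Rbm3 was picked for.

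The other genes linked to RBM3 and CIRBP were read in 6 lists with 40 genes in all, of which 39 were tested and 1, Trem1, was at 0 CPM. By edgeR, 0 of the 39 were called in any of the 5 comparisons. In hTau.P301S against WT mice, 4 of them had an unadjusted p under 0.05, as 7.14% of all genes did, and DESeq2 called 1 of them, Hnrnph1, as lower. For NR in hTau.P301S mice, 4 had an unadjusted p under 0.05, beside 12.9% of all genes, and DESeq2 called 1, Rbm4b, as higher. Comparing WT + NR with WT mice, the unadjusted count was 1, beside 0.79% of all genes. It was 3 in hTau.P301S + NR against WT + NR mice, beside 6.09%, and 4 in hTau.P301S + NR against WT mice, beside 1418 of the 16686 genes tested. DESeq2 called 0 of the 39 in these 3 comparisons.

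Hnrnph1 and the kinases Clk1, Clk2, Clk3 and Clk4 form the list of splicing regulators. HNRNPH1 is a splicing factor that acts on a temperature-dependent exon of RBM3, and the CLK kinases are temperature-sensitive kinases of SR proteins. Hnrnph1 was at 206 ± 18.6 CPM for WT, 177 ± 26.2 CPM for WT + NR, 136 ± 4.79 CPM for hTau.P301S and 171 ± 10.3 CPM for hTau.P301S + NR mice (SD, n = 4 each). All hTau.P301S mice, at 130 to 141 CPM, lay below all WT mice, at 191 to 233 CPM, as 2.69% of genes did, or 5.18% without replicate 1. The log2 fold change of Hnrnph1 was -0.60 with a standard error of 0.16 (edgeR adjusted p = 0.598), and -0.58 without replicate 1 (adjusted p = 0.192). All 5 regulators had a negative value in this comparison, with a median of -0.25 against 0.02 over all genes, and a median of -0.52 without replicate 1. Negative values were not particular to it. All 5 were also negative in WT + NR against WT mice, with a median of -0.22. The same held in hTau.P301S + NR against WT mice (median -0.27) and against WT + NR mice (median -0.05). In NR-treated against untreated hTau.P301S mice, the regulators had a median of 0.08, with 3 positive and 2 negative values. Without replicate 1, the median was 0.11 and all 5 were positive, with Clk1 and Clk4 turning.

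Rtn3, Ntrk2, Plcg1, Creb1 and Bdnf form the list of synapse protection partners. RTN3 is a reticulon protein whose translation RBM3 promotes, and BDNF acts through its receptor TrkB, the product of Ntrk2, with PLCG1 and CREB1 downstream. In hTau.P301S against WT mice, the log2 fold change was 0.37 for Rtn3, -0.09 for Ntrk2, -0.28 for Plcg1 and -0.27 for Creb1, none of them called. Without replicate 1, it was 0.48, 0.13, -0.12 and -0.09 for these genes, so Ntrk2 turned. Rtn3 was at 1350 ± 302 CPM in hTau.P301S and 1050 ± 139 CPM in WT mice (SD, n = 4 each), with overlapping groups. The list had a median of -0.09, or 0.13 without replicate 1. Under NR, its median in this strain was 0.30 against -0.03 over all genes, and 0.14 without replicate 1. Ntrk2 had a log2 fold change of 0.54 there with a standard error of 0.29, and 0.32 without replicate 1. Bdnf, named after its values were seen, was at 40.2 to 51.3 CPM in hTau.P301S mice, above the 12.2 to 37.8 CPM of WT and the 14.9 to 38.4 CPM of hTau.P301S + NR mice. Of all genes, 3.55% had all hTau.P301S mice above all WT mice. All treated lay below all untreated hTau.P301S mice for 5.54% of genes. In WT + NR mice, Bdnf was at 20.4 to 58.1 CPM, a range that holds that of hTau.P301S mice. Its log2 fold change was 0.63 against WT with a standard error of 0.33 (edgeR adjusted p = 0.598) and -0.60 with NR with a standard error of 0.28 (edgeR adjusted p = 0.367). Both values of Bdnf were the same to 2 decimals without replicate 1.

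Clock, Txn1, Atr, Rpa2, Tlr4, Ly96 and Trem1 form the list of CIRBP targets and receptors. CLOCK is a core clock factor, thioredoxin (Txn1) guards the redox state, ATR and RPA2 act in the response to DNA damage, and TLR4, MD-2 (Ly96) and TREM-1 are receptors for CIRBP outside cells. Txn1 had a log2 fold change of 1.06 in hTau.P301S against WT mice with a standard error of 0.66 (edgeR adjusted p = 0.598), and -0.21 without replicate 1, so its sign rested on that mouse. Txn1 ranged from 36.9 to 275 CPM in hTau.P301S mice. Clock was at -0.28, Atr at -0.71 and Rpa2 at 0.65 on the log2 fold scale, and at -0.08, -0.69 and 0.27 without replicate 1. The 6 genes tested had a median of 0.31, and 0.06 without replicate 1. For NR in this strain, it was -0.06, or 0.03 without replicate 1.

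A list of chaperone genes and their factor Hsf1, named heat-inducible genes here, was read beside the cold-inducible pair. In hTau.P301S against WT mice, 8 of the 10 had a positive value and the median was 0.22, but without replicate 1 there were 4 positive ones and the median was -0.09. With NR in hTau.P301S mice, 8 of 10 were negative with a median of -0.19, and 5 of 10 with a median of 0.00 without replicate 1. Hspa8 had a log2 fold change of 0.08, Hsp90aa1 of 0.25, Hsph1 of -0.13 and Hspd1 of 0.20 in hTau.P301S against WT mice, none called. Without replicate 1, these were -0.25, 0.29, -0.06 and 0.17, so Hspa8 turned. The inducible HSP70 genes Hspa1a and Hspa1b, named after their values were seen, were at 0.40 and 0.41 in this comparison and at -0.86 and -0.37 with NR in hTau.P301S mice. They kept these signs without replicate 1, at 0.20 and 0.48 and at -0.65 and -0.45, and neither was called in either comparison.

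The close RNA-binding relatives Rbmx, Rbmxl1, Rbmx2, Rbm4, Rbm4b, Rbm14, Srsf2, Srsf3 and Srsf7 share the RNA recognition motif. Their median in hTau.P301S against WT mice was 0.02, the same as over all genes, and 0.00 without replicate 1. Rbmx, an X-linked gene for a splicing regulator, was at 0.02 on the log2 fold scale, Srsf3 at 0.14, Srsf2 at -0.10 and Srsf7 at -0.17. Without replicate 1, they were at 0.00, 0.02, -0.01 and -0.31. Rbm4b, a relative of the splicing factor gene Rbm4, was at 10.3 to 11.8 CPM in hTau.P301S, 14.1 to 22.6 CPM in WT and 15.2 to 18.6 CPM in hTau.P301S + NR mice. Every treated hTau.P301S mouse thus lay above every untreated one, as 6.33% of all genes did, and 8.22% without replicate 1. Against WT, its log2 fold change was -0.76 with a standard error of 0.20 (edgeR adjusted p = 0.598), and -0.77 without replicate 1. In treated against untreated hTau.P301S mice, the list had a median of -0.11, and -0.08 without replicate 1. Rbm4b is named after its values were seen, as the gene that DESeq2 called.

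Celf1, Ptbp1, Wtap and Prdx6 stand beside Rbm3 and Cirbp in a group of mRNA splicing regulators that the study formed on these same mice, so they are no independent evidence of a direction. Their median was -0.06 in hTau.P301S against WT mice and 0.02 without replicate 1. Prdx6, a peroxiredoxin, had a log2 fold change of 1.01 with a standard error of 0.44, and 0.37 without replicate 1. Celf1 was at -0.23, Ptbp1 at -0.15 and Wtap at 0.03, and without replicate 1 at 0.07, -0.12 and -0.03, so Celf1 and Wtap turned. In the 2 comparisons without untreated hTau.P301S mice that hold a test, the medians of all 6 lists were between -0.22 and 0.11.

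**Figure D5:**
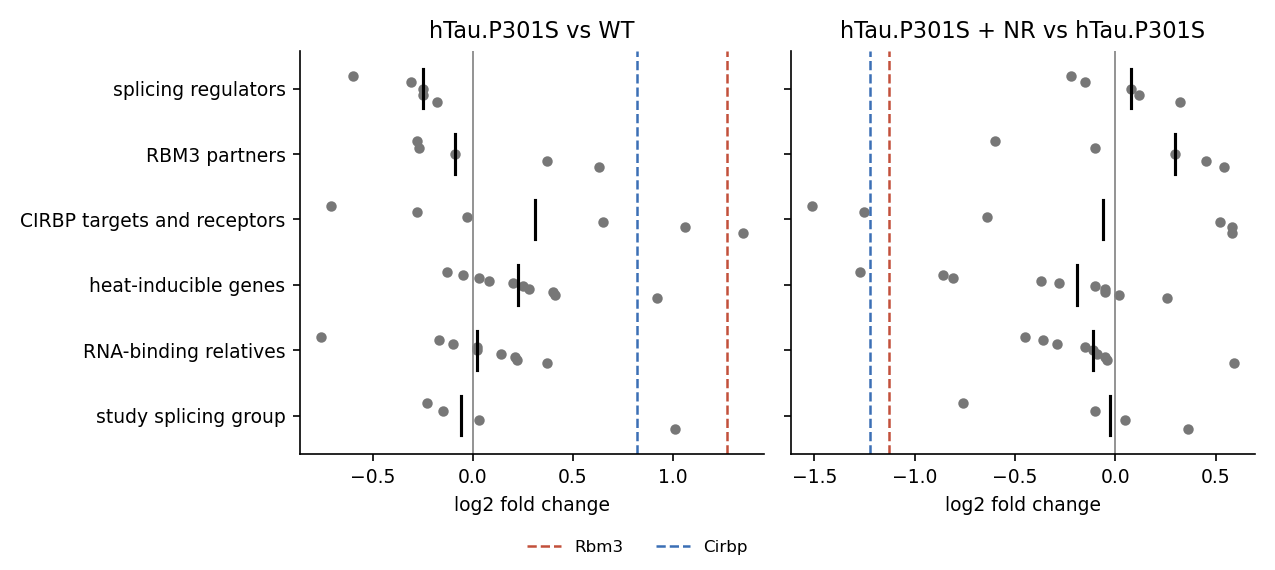
Log2 fold change of each tested gene of the 6 lists (points), with the median of the list as a black bar, in hTau.P301S against WT mice (left) and in NR-treated against untreated hTau.P301S mice (right), all mice included. The dashed lines mark Rbm3 at 1.27 and -1.13 and Cirbp at 0.82 and -1.22, and the list medians sit between -0.25 and 0.31 on the left and between -0.19 and 0.30 on the right.

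The genes next to Rbm3 and Cirbp were read for a change shared along the chromosome. Wdr13, 6082 bases from Rbm3, had a log2 fold change of -0.16 with a standard error of 0.28 in hTau.P301S against WT mice. Tbc1d25, 8591 bases away on the other side, had one of 0.39 with a standard error of 0.19. Without replicate 1, these were 0.05 and 0.39. With NR in hTau.P301S mice, Wdr13 stood at 0.15 with a standard error of 0.26, and at -0.05 without replicate 1. Tbc1d25 stood at -0.37 with a standard error of 0.18, and also at -0.37 without replicate 1. A change shared by Tbc1d25 and Rbm3 was not tested. Rbm3os, an antisense gene that overlaps Rbm3, had a mean of 0.224 CPM over all mice and was not tested. Since the kit is not stated to mark the strand, reads in the overlap cannot be told apart. Beside Cirbp, Midn, at 7616 bases, had a log2 fold change of -0.40 with a standard error of 0.39, and -0.10 without replicate 1. With NR in hTau.P301S mice, Midn stood at 0.38 with a standard error of 0.40, and at 0.09 without replicate 1. 1600002K03Rik begins 157 bases after the end of Cirbp on the same strand and was at 3.19 CPM over all mice. Its log2 fold change was 1.46 with a standard error of 0.84 in hTau.P301S against WT and -1.98 with a standard error of 0.88 with NR in hTau.P301S mice. Without replicate 1, these were -0.28 and -0.24, so the positive value against WT rested on that mouse.

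Across the 16 mice, the Pearson r of log2 CPM between Rbm3 and Cirbp was 0.843, and 0.632 over the 15 mice without hTau.P301S replicate 1. These points share the groups, the depth of each library and the length trend, so r is a description. Among 10437 other genes with a mean of at least 10 CPM, Cirbp was number 233 in likeness to Rbm3, and number 814 without that mouse. Cirbp was therefore not among the genes whose pattern was most like that of Rbm3.

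Rae1, an mRNA export factor, was the gene most like Rbm3, with r = 0.952 over 16 mice and r = 0.925 over 15. Its mean level was 36.3 CPM for WT, 35.8 CPM for WT + NR, 70.6 CPM for hTau.P301S and 35.9 CPM for hTau.P301S + NR mice. Over 16 mice, Grina, Kdelr1, Arpc4 and Ints5 followed, with r from 0.948 down to 0.930. Over 15 mice, Ess2, Pfn2, Galnt16 and Ip6k2 followed, with r from 0.918 down to 0.899. Rae1 was the only gene in both sets of 5.

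Usf1, a transcription factor that binds E-boxes, was the gene most like Cirbp, with r = 0.963 over 16 mice and r = 0.922 over 15. Its mean level was 57.3 CPM for WT, 55.3 CPM for WT + NR, 76.5 CPM for hTau.P301S and 47.6 CPM for hTau.P301S + NR mice, so its group means stood in the same order as those of Cirbp. Lias, Adrm1, Mmadhc and Mlf2 followed over 16 mice, with r from 0.946 to 0.937, and AI837181, Zfp777, Adrm1 and Twf2 over 15, with r from 0.917 to 0.883. Usf1 and Adrm1, a ubiquitin receptor of the proteasome, were in both sets of 5. In likeness to Cirbp, Rbm3 was number 628 over 16 mice and number 638 over 15.

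Markers of the other cells that the dissection could hold were read beside the pair, as the summed CPM of each list, and 0 markers were absent from a group. The 3 endothelial markers were at 56.2 to 98.6 CPM in untreated and 116 to 121 CPM in treated hTau.P301S mice, without overlap, also without replicate 1. Of these markers, Flt1 alone did not overlap, at 5.13 to 50.4 CPM in untreated and 67.8 to 74.1 CPM in treated mice, while Cldn5 was at 16.6 to 57.6 CPM and 22.4 to 31.3 CPM. Of all single genes, 6.33% had all treated above all untreated hTau.P301S mice, and 8.22% without replicate 1. In WT mice the 3 endothelial markers were at 93.5 to 196 CPM and in WT + NR mice at 93.9 to 154 CPM. The 3 astrocyte markers were at 1270 to 2210 CPM for hTau.P301S, 1230 to 1310 CPM for hTau.P301S + NR, 1090 to 1370 CPM for WT and 1060 to 1500 CPM for WT + NR mice. Without replicate 1, they reached 1480 CPM at most for hTau.P301S. In that mouse Aldoc was at 2060 CPM, the highest of all mice, and Aqp4 and Gja1 were at 54.5 and 98.1 CPM, the lowest of all mice. The 3 microglia markers, at 85.8 to 189 CPM over all groups, overlapped between all of them. The 3 oligodendrocyte markers were at 5410 to 7850 CPM for hTau.P301S, 5200 to 7100 CPM for hTau.P301S + NR, 2140 to 6060 CPM for WT and 5330 to 6730 CPM for WT + NR mice.

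Markers of nearby tissue differed widely within groups. The 5 choroid plexus markers were at 19.8 to 7950 CPM for WT, 53.3 to 9800 CPM for WT + NR, 19.1 to 4730 CPM for hTau.P301S and 59.3 to 3570 CPM for hTau.P301S + NR mice. The 5 markers of striatal neurons ranged from 56.5 to 1070 CPM for WT, 59.4 to 229 CPM for WT + NR, 66.8 to 121 CPM for hTau.P301S and 59.5 to 347 CPM for hTau.P301S + NR mice. Of these, Adora2a was at 150 CPM in WT replicate 2 and 48.8 CPM in hTau.P301S + NR replicate 4. It was at 13.8 CPM in WT + NR replicate 3 and 1.55 to 5.48 CPM in the other mice. Cirbp in WT replicate 2, at 89.0 CPM, was the highest of its group. In WT + NR replicate 3 and hTau.P301S + NR replicate 4, Rbm3 was the lowest of its group, at 53.9 and 47.4 CPM. Their Cirbp, and Rbm3 in WT replicate 2, lay inside the range of the group. The 5 blood markers had a median of 30.9 CPM for WT, 8.82 CPM for WT + NR, 5.40 CPM for hTau.P301S and 1.70 CPM for hTau.P301S + NR mice, and reached 88.0 CPM in a WT mouse. The part of these cells in the levels of Rbm3 and Cirbp was not tested.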

How the data were processed

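RNA of the hippocampus from 16 mice was sequenced, and groups and replicate numbers were taken from the sample titles. The authors trimmed reads with FastQC and Trim Galore (below Q20 removed), aligned them to mm10 with STAR and deposited RSEM raw counts per gene, which are whole numbers without normalization. Tool versions are not given in the sources used here. The deposited table also holds another value, a gene length. In the 2 genes examined, this equals the length of all GENCODE exons merged.

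Counts were normalized by TMM and fitted with edgeR 4.0.16 in R 4.3.3 (default low-count filter, quasi-likelihood test, Benjamini-Hochberg adjustment over all genes tested), with 8 mice per comparison and all 16 for the interaction. The study used DESeq2, which served here as an alternative (1.42.0). A standard error is the log2 fold change over the root of its test statistic. Ratios were compared by exact permutation tests (scipy 1.17.1). P-values measure the spread between 4 mice per group, and the depth of 16490261 counts or more per mouse leaves little counting error for either gene. The fit was tested on simulated data.

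The members, lists and tests were chosen with earlier results of these data known. Genes named besides the members are the 4 most abundant of each list, the nearest protein-coding neighbours and the 5 genes with the highest r. Bdnf, Hspa1a, Hspa1b and Rbm4b lie outside this rule and were named after their values were seen. Alternatives were DESeq2, DESeq2's size factors, all 4 groups in one fit, no filter, at least 10 counts, a length trend removed, the replicate number as a block, and each mouse left out in turn.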

Additional observations from a re-analysis of the deposited data

Results flagged for a closer look

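In 12 sets of 4 mice (the CPM of Rbm3, the CPM of Cirbp and their ratio in each group), the gap from the highest or lowest mouse to its nearest neighbour was divided by the whole range and compared with Dixon's limit at the 95% level. Chance passes this limit in about 1 of 20 sets. The sets are not independent, since the ratio is formed from the same levels. Rbm3 in hTau.P301S replicate 1, at 252 CPM, passed it with 0.904, against 105 to 119 CPM in the other 3 mice of the group. These Rbm3 values entered the choice of the gene, and this mouse already stood apart by its library, so this pass is only a description. Cirbp in hTau.P301S + NR replicate 2, at 70.4 CPM, passed it with 0.867, against 49.6 to 52.4 CPM in its group.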

How the results depend on the processing

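The log2 fold changes of Rbm3 and Cirbp that involve untreated hTau.P301S mice kept their sign in all alternatives. Among the mice left out in turn, hTau.P301S replicate 1 moved them most, and removing the transcript length trend moved Cirbp with NR further, to -0.80. With each mouse left out, Rbm3 ranged from 0.88 to 1.38 and Cirbp from 0.43 to 0.95 against WT. With NR, the ranges were -1.24 to -0.73 and -1.35 to -0.82. The difference of NR effects ranged from -1.35 to -0.83 and from -1.30 to -0.77, where the values nearest 0 are those without hTau.P301S replicate 1. Values near 0 turned: Rbm3 with NR in WT mice ranged from -0.0058 to 0.20, Cirbp from -0.14 to 0.0656, and Rbm3 in hTau.P301S + NR against WT + NR mice from -0.0842 to 0.19. No tested value of either gene passed the limit in any setting (adjusted p from 0.537 to 1).

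Counts of DEGs depended on the model. In hTau.P301S against WT mice, the 1 gene became 116 with DESeq2, 36 with all groups in edgeR, 492 with all groups in DESeq2, 5 without a filter, 9 with the gene length trend removed, 7 with the transcript length trend removed, 3 with the replicate number as a block, and 1 to 14 with a mouse left out (14 without hTau.P301S replicate 1). With NR in hTau.P301S mice, 1 became 243, 2 and 245 with these models, 0 with at least 10 counts or the block, and 0 to 33 with a mouse left out (33 without replicate 1). With NR in WT mice, 0 became 3 in both DESeq2 fits, and 0 with any mouse left out. In hTau.P301S + NR against WT + NR mice, 9 became 56 and 22 with DESeq2, 15 without a filter, 4 with the block, and 8 to 31 (31 without WT + NR replicate 3). Against WT mice, 17 became 120, 6 and 38 with these models, 11 with the block, and 9 to 23. The cause was not tested. Same-numbered mice are different animals, and the correlation of their deviations ran from -0.537 to 0.417, so replicate numbers name mice only. With the block, no call of Rbm3 or Cirbp changed.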
